A study of Danio rerio with 6 samples.

Results

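The genes of the phototransduction cascade were followed through RNA sequencing of whole adult zebrafish brains. They were taken from a list of 55 zebrafish gene names that covers photoreceptor receptors, transducin, phosphodiesterase, arrestins, opsin kinases, calcium sensors, cyclic nucleotide-gated channels, outer segment proteins and retinoid carriers. Each Ensembl gene of the expression matrix was matched by symbol to a name on the list, without regard to case and also without the final a or b, and a mean of at least 1 normalised read over the libraries was required. This gave 54 genes of the 23678 in the matrix. Of the names, 45 were matched to at least 1 gene and 10 were not (opn1sw1, opn1mw1, opn1mw2, gngt1, pde6a, rcvrn2, rcvrn3, unc119.2, impg2b and rp1). Symbols are printed as the name table gives them, in capitals for many genes, and the Ensembl identifier is added where a symbol is shared by several genes. By their known place in the retina, 14 genes were grouped as rod copies, 19 as cone copies and 19 as shared or supporting genes. The other 2 genes, gnb1a and gnb1b, encode G protein beta subunits that neurons at large express.

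The mutant fish were homozygous for chrna3 C246X, a stop codon made with CRISPR/Cas9 in the gene of a neuronal acetylcholine receptor subunit, and were set against wild-type (WT) fish. Each genotype had 3 libraries of polyadenylated RNA from whole brain. The labels name no second allele and no treatment, and they give no fish line, sex, hour of sampling or number of founder mutants. They also do not say whether a library holds 1 fish or several, so p-values reflect the spread between libraries, part or all of which could be technical.

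In rods and cones, light isomerises the retinal bound to an opsin, the opsin activates the G protein transducin, and transducin releases the catalytic subunits of a cyclic GMP phosphodiesterase from their inhibitory subunit. The fall in cyclic GMP closes cation channels, and opsin kinases, arrestins and calcium sensors end the response. In fish these genes are used in the retina and also in the pineal organ, a light-sensitive gland on the roof of the brain that makes melatonin and holds photoreceptors of its own. The wider vertebrate brain expresses only a few of them, among them the beta subunits of G proteins.

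The deposited values, estimated reads that had been scaled by a single factor for each library, are called normalised reads here. They sum to between 25655952 and 26794838 per library, and undoing the factors gave 24222342 to 26659976 reads, so depth differed little between libraries. The values are not divided by transcript length, so levels are compared between libraries and not between genes. Across all 23104 genes with a mean of at least 1, the median log2 fold change was −0.01. The 11 neuron markers summed to between 102% and 108% of their WT mean in C246X brains and between 94.9% and 106% in WT brains. At an adjusted p under 0.05 in limma 0 were lower and 1 higher, where 11.4% and 11.1% of all tested genes were. SNAP25 (ENSDARG00000020609) was the largest marker in every library, at 93500 to 119007 normalised reads. Single markers could vary more than the sum, such as NEFL with 5178, 2347 and 3728 in WT brains. The edited gene itself, listed as CHRNA3, had 59.8, 40.7 and 57.4 normalised reads in C246X brains, against 102, 28.1 and 55.1 in WT brains (limma, adjusted p = 0.94). A stop codon need not lower the RNA, so this level does not test the labels.

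Phototransduction genes were lower in C246X brains, and their level differed widely between libraries of 1 genotype. The 52 genes without gnb1a and gnb1b summed to 1199, 13209 and 913.0 normalised reads in replicates 1, 2 and 3 of the C246X brains, against 16303, 47610 and 24958 in replicates 1, 2 and 3 of the WT brains. Replicate order is the same in all sets of 3 values given here. The sums made up 0.00448%, 0.0504% and 0.00346% of the C246X libraries and 0.0614%, 0.184% and 0.0973% of the WT libraries. All 3 C246X sums lay below the lowest WT sum, but C246X replicate 2 lay far nearer to WT replicate 1 than to the other C246X libraries. In whole-brain RNA, fewer cells of a type and less RNA per cell cannot be told apart.

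Of the 54 genes, 31 passed as lower in C246X brains and 0 as higher, at a Benjamini-Hochberg adjusted p under 0.05 over all tested genes in limma. Among all 23104 tested genes, 11.4% passed as lower, 11.1% as higher and 22.5% in either direction. At an unadjusted p under 0.05 there were 36 lower and 0 higher, a cut at which all tested genes were not counted. With limma-voom 28 were lower and 0 higher, against 2511 lower and 2576 higher of all 23104 tested genes. The median log2 fold change of the 54 genes was −2.54, against −0.01 over all tested genes. In 34 of the 54 genes every C246X library lay below every WT library, which 20.7% of all tested genes showed. In 1 gene, PRPH2, every C246X library lay above every WT library, which 20.7% of all tested genes also showed. The count of lower genes changed when single libraries were left out. It was 1 without C246X replicate 1, 5 without C246X replicate 3, 2 without WT replicate 2, 5 without WT replicate 3, 21 without WT replicate 1 and 33 without C246X replicate 2. Over all tested genes the count of lower genes, 2638 with 6 libraries, was 1585, 1719, 2130, 1810, 2384 and 1744 in the same order. The median log2 fold change of the 54 genes was −2.23 without C246X replicate 1 and lay between −3.29 and −2.23 over the left-out libraries. Among the 54 genes only the opsin kinase copy GRK7 (ENSDARG00000055534) passed under every alternative and every left-out library. Its adjusted p-values in limma or limma-voom lay between 0.00201 and 0.0419. How many of all tested genes passed under every setting was not counted.

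**Figure D1:**
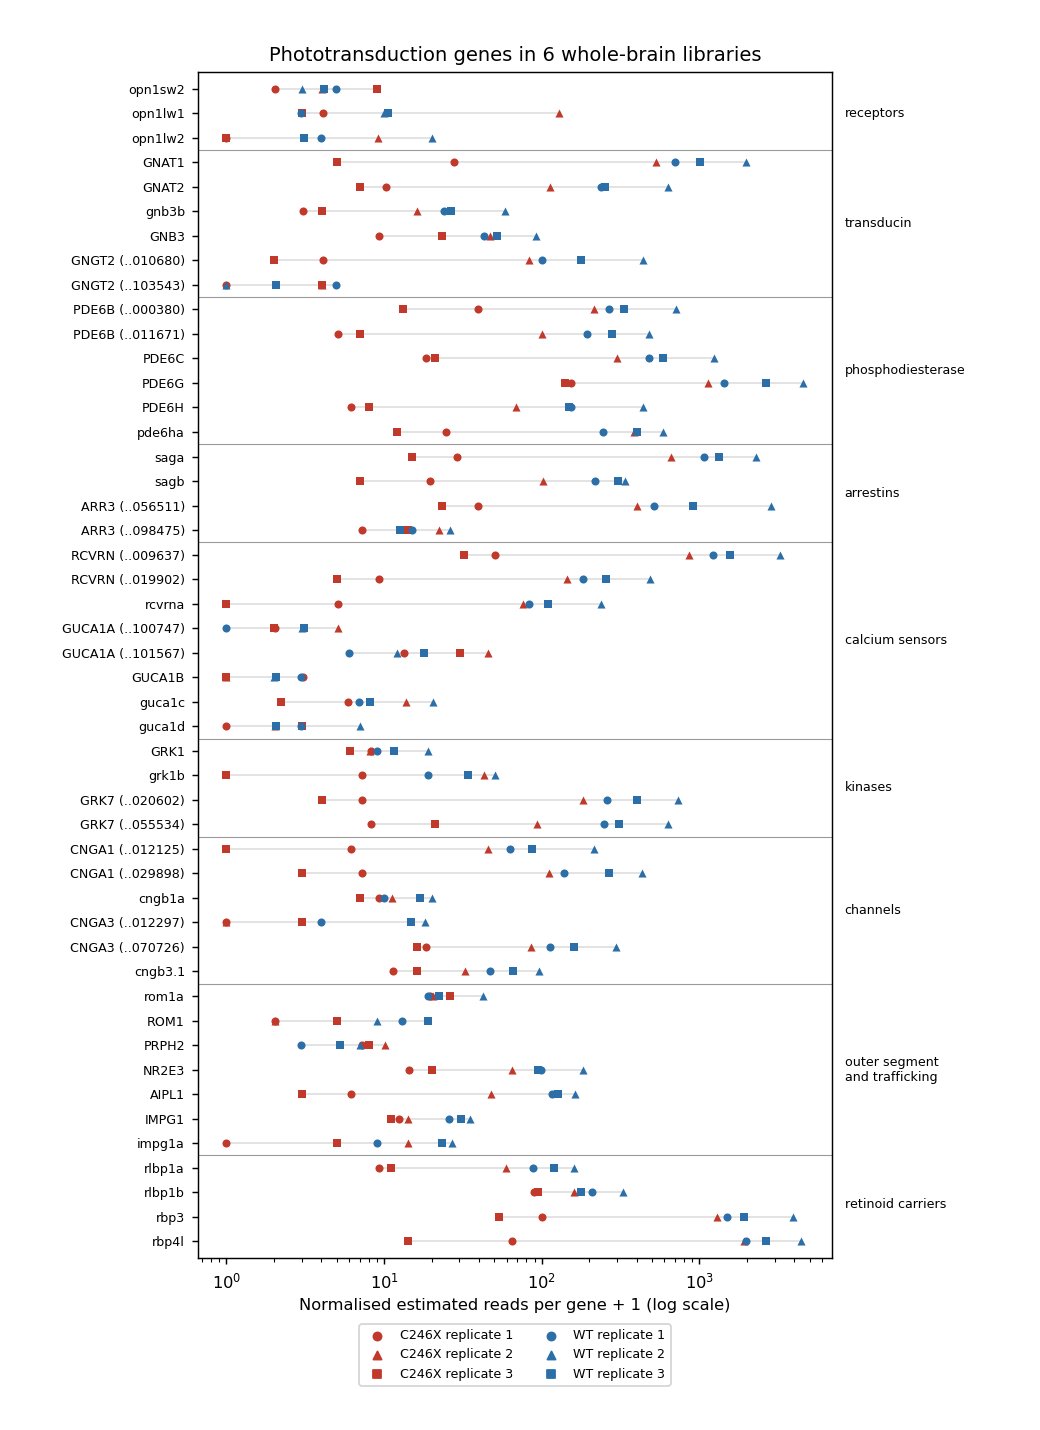
Normalised reads plus 1 (log scale) of 48 phototransduction genes in the 6 brain libraries, ordered by role, with C246X libraries in red, WT libraries in blue and the replicate number as the symbol; gnb1a and gnb1b are left out for their much higher level. For most abundant genes C246X replicates 1 and 3 lie far to the left, C246X replicate 2 lies close to WT replicate 1, and WT replicate 2 lies farthest to the right, as for GNAT1 with 26.8, 530 and 4.03 in C246X brains and 700.0, 1987 and 1009 in WT brains.

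Among the receptors, cone opsin RNA was low in both genotypes apart from 1 gene in 1 library. The red cone opsin gene opn1lw1 departed from the general pattern. It had 3.095, 127 and 2.01 normalised reads in C246X brains, against 1.99, 9.04 and 9.53 in WT brains. Its highest value stood in a C246X library, the genotypes overlapped, and the difference did not pass (log2 fold change 0.77, 95% interval −2.28 to 3.83). Without C246X replicate 2 the fold change of opn1lw1 was −0.96. The other red opsin gene opn1lw2 had 0, 8.15 and 0 in C246X brains, against 2.99, 19.1 and 2.12 in WT brains. The blue opsin gene opn1sw2 had 1.03, 3.06 and 8.06 in C246X brains, against 3.98, 2.01 and 3.18 in WT brains. Both overlapped between genotypes and did not pass.

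The alpha subunits of transducin, which opsins switch on, fell in C246X brains, as did a gamma and a cone beta subunit. GNAT1, the rod transducin alpha subunit, had 26.8, 530 and 4.03 normalised reads in C246X brains, against 700.0, 1987 and 1009 in WT brains. Its log2 fold change of −4.74 was the lowest of the 54 genes, with a 95% interval from −7.98 to −1.49 (adjusted p = 0.045). GNAT2, the cone alpha subunit, had 9.29, 111 and 6.04 in C246X brains, against 236, 633 and 252 in WT brains (log2 fold change −4.06, 95% interval −6.23 to −1.90; adjusted p = 0.0184). Neither alpha subunit overlapped between genotypes. GNGT2 (ENSDARG00000010680), named for the cone gamma subunit, had 3.095, 82.5 and 1.01 in C246X brains, against 99.6, 435 and 176 in WT brains, and passed as lower. The cone beta subunit gene gnb3b had 2.06, 15.3 and 3.02 in C246X brains, against 22.9, 57.3 and 25.4 in WT brains, and passed too. Its relative GNB3 did not pass, at 8.25, 45.8 and 22.2 in C246X brains against 41.8, 91.4 and 50.8 in WT brains. The second GNGT2 copy (ENSDARG00000103543) had at most 3.98 normalised reads in any library.

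The 2 general beta subunit genes were at another level. The first, gnb1a, had 15092, 15614 and 15427 normalised reads in C246X brains, against 17482, 18906 and 17374 in WT brains. It averaged 15378 ± 264 in C246X brains and 17921 ± 855 in WT brains (SD, n = 3 each), a log2 fold change of −0.22 that passed (limma, adjusted p = 0.0277). The second, gnb1b, had 12089, 12142 and 12397 in C246X brains, against 12792, 12706 and 12170.1 in WT brains, and did not pass (log2 fold change −0.04, 95% interval −0.16 to 0.08). Both genes varied little between libraries of 1 genotype, unlike the alpha and gamma subunits.

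Both catalytic and inhibitory subunits fell, with 5 of 6 genes past the threshold, where 11.4% of all tested genes passed as lower. PDE6G, the inhibitory gamma subunit of rods, had 152, 1125 and 140.0 normalised reads in C246X brains, against 1433, 4549 and 2661 in WT brains (log2 fold change −3.16, SE 0.77; adjusted p = 0.0218). PDE6C, the catalytic subunit of cones, had 17.5, 300.5 and 20.1 in C246X brains, against 475, 1245 and 584 in WT brains (log2 fold change −3.84, SE 0.97; adjusted p = 0.0251). The C246X libraries lay below the WT libraries in both genes. The rod catalytic beta subunit had 2 copies. PDE6B (ENSDARG00000000380) had 38.3, 214 and 12.1 in C246X brains, against 265, 705 and 329 in WT brains. PDE6B (ENSDARG00000011671) had 4.13, 98.8 and 6.04 in C246X brains, against 193, 480.3 and 279 in WT brains. Both copies passed as lower without overlap. The cone inhibitory subunit also had 2 copies, which differed in their calls. PDE6H had 5.16, 67.2 and 7.05 in C246X brains, against 152, 435 and 148 in WT brains, and passed. Its copy pde6ha had 23.7, 382 and 11.1 in C246X brains, against 244, 585 and 401 in WT brains, so that C246X replicate 2 stood above WT replicate 1. The fold change of pde6ha, −2.99 (95% interval −5.52 to −0.47), did not pass after adjustment (adjusted p = 0.0877). No test of the difference between the copies was made.

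The rod arrestins and 1 cone arrestin copy fell in C246X brains. Arrestins bind phosphorylated opsin and end its signal. The rod gene saga had 27.9, 661 and 14.1 normalised reads in C246X brains, against 1070.4, 2282 and 1332 in WT brains (log2 fold change −4.49, SE 1.20; adjusted p = 0.0314). Its copy sagb had 18.6, 101 and 6.04 in C246X brains, against 216, 337 and 304 in WT brains (log2 fold change −3.55, SE 0.81; adjusted p = 0.0176). Neither rod arrestin overlapped between genotypes. The cone arrestin copy ARR3 (ENSDARG00000056511) had 38.2, 400.3 and 22.2 in C246X brains, against 511, 2833 and 908 in WT brains, and passed. WT replicate 2 held 5.55 times as much of this gene as WT replicate 1. The other copy, ARR3 (ENSDARG00000098475), was low and overlapped, at 6.19, 21.4 and 13.1 in C246X brains against 13.9, 25.1 and 11.7 in WT brains. Its difference did not pass (log2 fold change −0.37, 95% interval −1.52 to 0.77).

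Both copies of the cone opsin kinase gene fell. Kinases of this family phosphorylate light-activated opsins, which lets arrestin bind. GRK7 (ENSDARG00000055534) had 7.22, 91.7 and 20.1 normalised reads in C246X brains, against 249, 627 and 306 in WT brains. Its log2 fold change of −3.85 had a 95% interval from −5.64 to −2.06 and the smallest adjusted p of the 54 genes, 0.0108. GRK7 (ENSDARG00000020602) had 6.19, 181 and 3.02 in C246X brains, against 259.9, 727 and 398 in WT brains (log2 fold change −4.60, adjusted p = 0.0323). The kinase gene grk1b had 6.19, 41.8 and 0 in C246X brains, against 17.9, 49.2 and 32.8 in WT brains. Its C246X replicate 2 lay among the WT libraries, and the difference did not pass. GRK1 (ENSDARG00000058803), named for an opsin kinase of rods, had 7.22, 7.13 and 5.04 in C246X brains, against 7.97, 18.1 and 10.6 in WT brains. All its C246X libraries lay below the WT libraries, yet the difference did not pass (log2 fold change −0.77, 95% interval −1.73 to 0.20).

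The recoverin genes on the list were lower and guanylate cyclase activator genes were low throughout. Recoverin holds back opsin kinase while calcium is high, and the guanylate cyclase activating proteins encoded by the guca1 family stimulate the synthesis of cyclic GMP when calcium falls. RCVRN (ENSDARG00000009637) had 49.5, 863 and 31.2 normalised reads in C246X brains, against 1224, 3247 and 1551 in WT brains (log2 fold change −4.03, SE 1.08; adjusted p = 0.0316). RCVRN (ENSDARG00000019902) had 8.25, 145 and 4.03 in C246X brains, against 182, 485 and 256 in WT brains, and passed as well. The gene listed as rcvrna had 4.13, 75.4 and 0 in C246X brains, against 81.6, 238 and 108 in WT brains. It did not overlap between genotypes but missed the threshold (log2 fold change −4.14; adjusted p = 0.0586). None of the 5 guca1 genes passed. The most abundant, GUCA1A (ENSDARG00000101567), had 12.4, 44.8 and 29.2 in C246X brains, against 4.98, 11.1 and 16.9 in WT brains. Its fold change of 1.28 (95% interval −0.02 to 2.58) was the highest of the 54 genes and did not pass (adjusted p = 0.142). The other 4 guca1 genes stayed at 19.4 normalised reads or below in every library, a level at which few reads decide a fold change.

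The subunits of the cyclic GMP-gated channel passed as lower in 5 of 6 genes, against 11.4% of all tested genes. The rod channel subunit copy CNGA1 (ENSDARG00000029898) had 6.19, 110.0 and 2.01 normalised reads in C246X brains, against 136, 433 and 266 in WT brains (log2 fold change −4.23, SE 1.16; adjusted p = 0.034). CNGA1 (ENSDARG00000012125) had 5.16, 44.8 and 0 in C246X brains, against 61.7, 212 and 85.8 in WT brains. Both passed without overlap. The cone channel subunit copy CNGA3 (ENSDARG00000070726) had 17.5, 84.5 and 15.1 in C246X brains, against 112, 293 and 159 in WT brains (log2 fold change −2.57, SE 0.63; adjusted p = 0.0231). CNGA3 (ENSDARG00000012297) had 0, 0 and 2.01 in C246X brains, against 2.99, 17.1 and 13.8 in WT brains. In this copy C246X replicate 2 did not stand above the other C246X libraries. The cone subunit gene cngb3.1 had 10.3, 31.6 and 15.1 in C246X brains, against 45.8, 95.5 and 64.6 in WT brains, and passed. The rod subunit gene cngb1a ranged from 6.04 to 10.2 in C246X brains and from 8.96 to 19.1 in WT brains and did not pass.

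Of 7 genes grouped under outer segment and trafficking, 4 passed as lower, against 11.4% of all tested genes. The group also holds a chaperone, a nuclear receptor and matrix proteoglycan genes. Of its disc rim tetraspanin genes ROM1 passed, and rom1a and PRPH2 did not. AIPL1, a chaperone needed to assemble the phosphodiesterase, had 5.16, 46.9 and 2.01 normalised reads in C246X brains, against 116, 161 and 125 in WT brains (log2 fold change −3.79, SE 0.87; adjusted p = 0.0177). NR2E3, a nuclear receptor that in mouse and human represses cone genes in developing rods, had 13.4, 64.2 and 19.1 in C246X brains, against 97.6, 183 and 93.2 in WT brains (log2 fold change −2.17, SE 0.54; adjusted p = 0.0245). Both genes separated the genotypes without overlap. IMPG1, a proteoglycan of the matrix around outer segments, had 11.3, 13.2 and 10.1 in C246X brains, against 24.9, 34.2 and 29.7 in WT brains. It averaged 11.6 ± 1.59 in C246X brains and 29.6 ± 4.64 in WT brains (SD, n = 3 each; log2 fold change −1.28, adjusted p = 0.0181), and it varied far less within a genotype than the cascade genes. Its copy impg1a had 0, 13.2 and 4.03 in C246X brains, against 7.97, 26.1 and 22.2 in WT brains, and did not pass. ROM1, a tetraspanin of the disc rim, had 1.03, 1.02 and 4.03 in C246X brains, against 11.9, 8.04 and 18.01 in WT brains, and passed. The gene rom1a, of the same family, did not pass, at 18.6, 19.4 and 25.2 in C246X brains against 17.9, 41.2 and 21.2 in WT brains. PRPH2, named for the other disc rim tetraspanin and picked out after its values were seen, had 6.19, 9.17 and 7.05 in C246X brains, against 1.99, 6.03 and 4.24 in WT brains. Its C246X libraries lay above its WT libraries, but at this low level the difference did not pass (log2 fold change 0.81, 95% interval −0.28 to 1.89).

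All 4 carrier genes separated the genotypes, and 3 of them passed as lower. Among all tested genes, 20.7% had every C246X library below every WT library and 11.4% passed as lower. The gene rbp3 encodes the retinoid-binding protein of the space around photoreceptors. It had 100.1, 1298 and 52.4 normalised reads in C246X brains, against 1489, 3932 and 1926 in WT brains (log2 fold change −3.55, SE 1.03; adjusted p = 0.0411). The gene rbp4l is a relative of the retinol carrier gene rbp4. It had 64.0, 1919 and 13.1 in C246X brains, against 1985, 4385 and 2625 in WT brains. C246X replicate 2 lay just below WT replicate 1, and the fold change of −4.56 (95% interval −7.97 to −1.14) did not pass (adjusted p = 0.0608). The retinaldehyde-binding protein genes rlbp1a and rlbp1b are used in the retina by Müller glia and pigment epithelium rather than by photoreceptors. The first, rlbp1a, had 8.25, 58.1 and 10.1 in C246X brains, against 86.6, 159.8 and 118.6 in WT brains. The second, rlbp1b, had 88.4, 158 and 93.8 in C246X brains, against 206, 329 and 176 in WT brains. Both fell, with log2 fold changes of −2.71 for rlbp1a and −1.05 for rlbp1b.

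**Figure D2:**
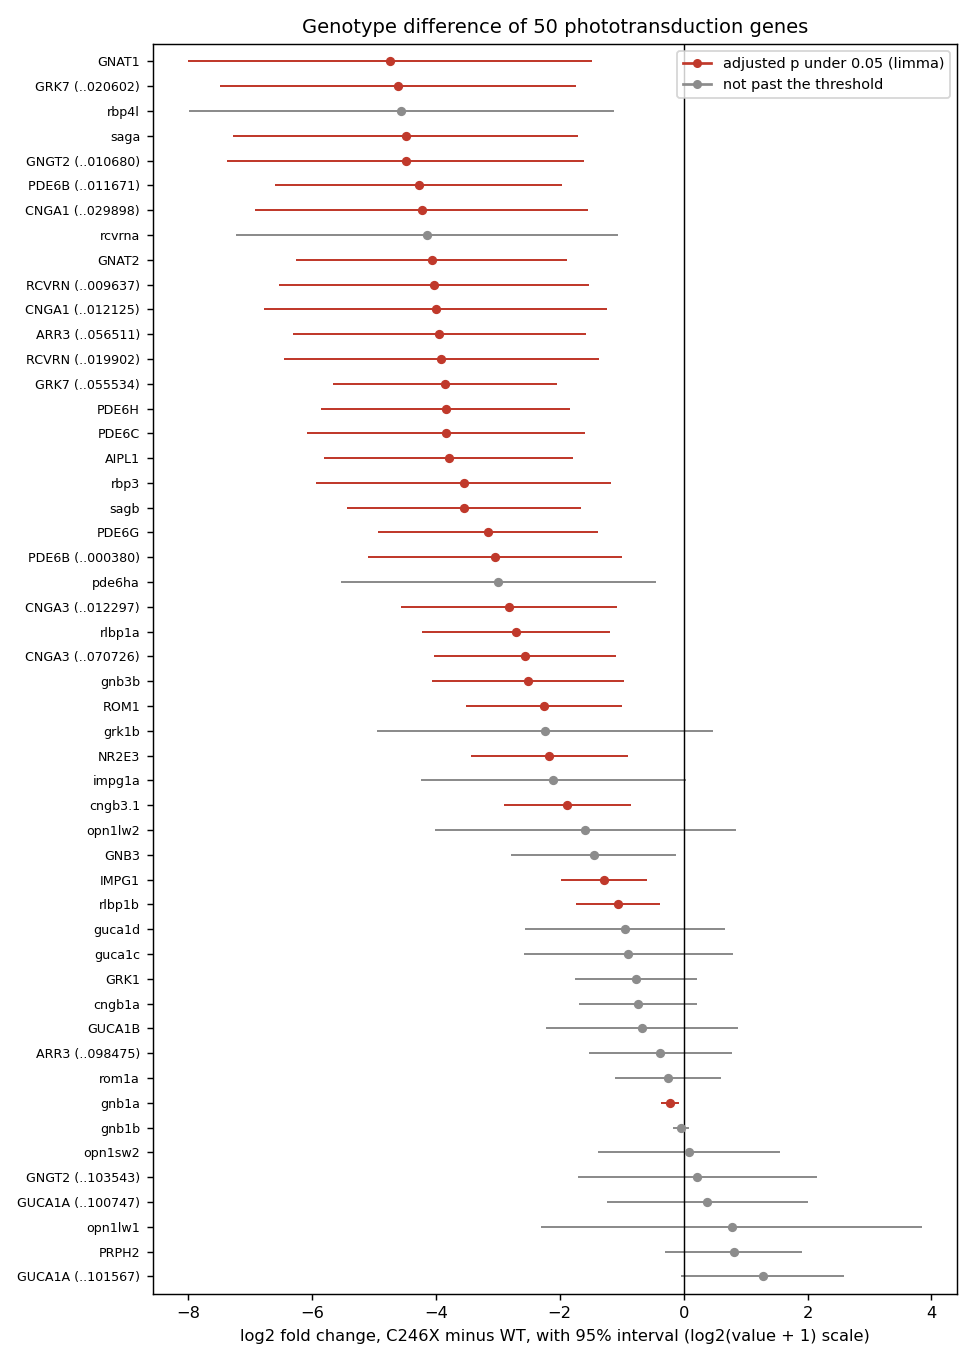
Difference between C246X and WT brains for 50 phototransduction genes as a log2 fold change (positive where C246X is higher; 1 was added to each value before the log), with 95% intervals, in red where the adjusted p in limma was under 0.05. Estimates run from −4.74 (GNAT1) to 1.28 (GUCA1A, ENSDARG00000101567), and 44 of the 50 are negative.

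Among the genes that passed, fold changes ran from −4.74 to −0.22 and adjusted p-values from 0.0108 to 0.0459. The intervals were wide, with a median width of 4.06 log2 units, against 0.698 over all tested genes. Of the 37 genes with a mean of at least 20 normalised reads over both genotypes, 29 passed as lower. Of the 17 genes below that mean, 2 did (ROM1 and CNGA3, ENSDARG00000012297). This split is not independent of the difference between genotypes. Genes such as gnb3b, IMPG1 and AIPL1 had a C246X mean below 20 and reached the cut through their WT libraries. The gene opn1lw1 reached it only through C246X replicate 2. Whether abundance itself set the calls was not tested. In the C246X brains 32, 12 and 30 of the 52 genes without gnb1a and gnb1b had fewer than 10 normalised reads, against 16, 9 and 10 in the WT brains. They were listed at 0 in 5, 2 and 5 cases in the C246X libraries, against 1, 1 and 0 in the WT libraries.

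Rod and cone sums were lower in like proportion in C246X brains. Of 14 rod copies 10 passed as lower (median log2 fold change −3.57), and of 19 cone copies 11 did (median −2.57). The shared genes had 9 of 19 lower (median −2.10), and among all tested genes 11.4% were lower. Summed rod levels were 636, 6466 and 429 normalised reads in C246X brains, against 8260.2, 26157 and 14309.6 in WT brains. Summed cone levels were 165, 1998 and 174 in C246X brains, against 2496, 8179 and 3547 in WT brains. The C246X mean was 0.155 times the WT mean for the rod sum and 0.164 times for the cone sum. The ratio of the rod to the cone sum was 3.85, 3.24 and 2.46 in C246X brains and 3.31, 3.198 and 4.03 in WT brains, so the genotypes overlapped. Over the 6 libraries this ratio varied 1.64-fold, while the rod sum varied 61.0-fold and the cone sum 49.5-fold.

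**Figure D3:**
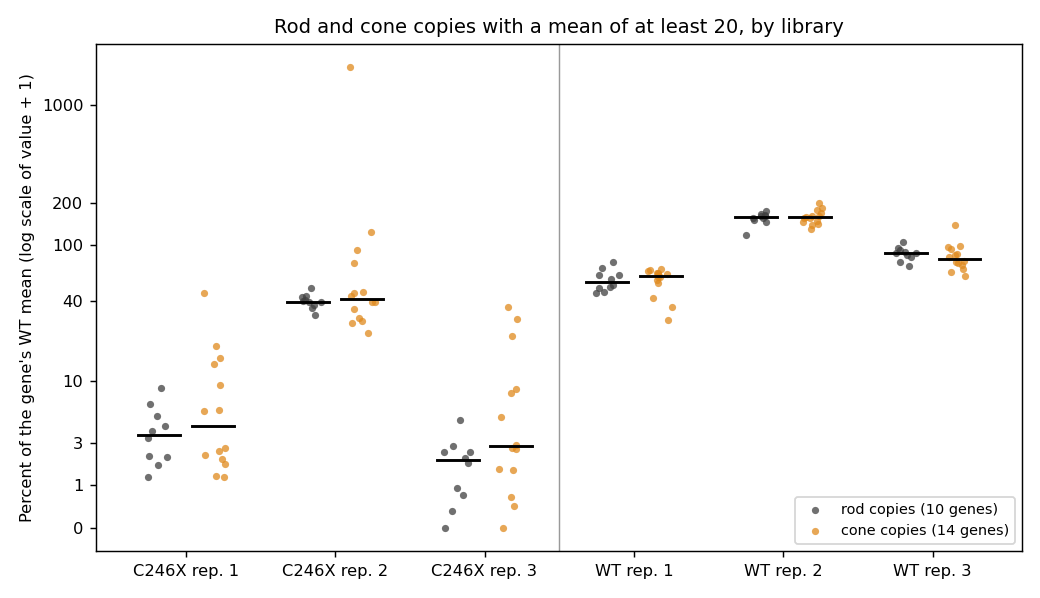
Level of each of 24 rod and cone genes with a mean of at least 20 normalised reads, as a percent of that gene's WT mean (log scale of value + 1), in each library; black bars are medians, grey points rod copies, orange points cone copies. Rod medians are 3.58%, 39.3% and 2.01% in C246X replicates 1, 2 and 3 and 54.2%, 159.6% and 87.9% in WT replicates 1, 2 and 3, and cone medians lie close to them; the point far above the rest in C246X replicate 2 is opn1lw1.

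Libraries of 1 genotype differed widely, and rod and cone genes moved together from library to library. Over the 24 rod and cone genes with a mean of at least 20, the median gene stood at 3.58%, 39.4% and 2.45% of its WT mean in C246X brains, against 59.4%, 159% and 84.9% in WT brains. Cone copies alone had medians of 4.24%, 41.3% and 2.79% in C246X brains, against 60.7%, 158% and 80.3% in WT brains. The median of the 11 shared genes of that abundance was 4.09%, 51.5% and 2.14% in C246X brains, against 67.0%, 147% and 79.1% in WT brains. C246X replicate 2 was thus the high library of its genotype in all 3 classes. Per rod or cone gene it held a median of 13.7 times the mean of the other C246X libraries, with a range from 2.48 to 49.8. It held a median of 75.7% of WT replicate 1. WT replicate 2 held a median of 2.72 times WT replicate 1, with a range from 1.56 to 5.55. In 40 of the 54 genes replicate 2 was the highest library of both genotypes, which held for 11.2% of all tested genes. The share was 34 of 37 among genes with a mean of at least 20, where the exceptions were opn1lw1, gnb1b and rom1a. The labels do not say what libraries of the same number share.

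The copies listed as RCVRN stood in like proportion over the libraries. RCVRN (ENSDARG00000019902) stood at 0.167, 0.168 and 0.129 of RCVRN (ENSDARG00000009637) in C246X brains and at 0.149, 0.150 and 0.165 in WT brains. In C246X replicates 1 and 3 the first of these had only 8.25 and 4.03 normalised reads, so few reads set those ratios. Whether reads were shared between such near copies was not tested. Other copies were less regular. The ratio of GRK7 (ENSDARG00000055534) to GRK7 (ENSDARG00000020602) was 1.17, 0.506 and 6.67 in C246X brains, where C246X replicates 1 and 3 held at most 20.1 normalised reads of either, and 0.958, 0.863 and 0.769 in WT brains.

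Of 9 pineal genes, 4 passed as lower in C246X brains and 0 as higher, against 11.4% and 11.1% of all tested genes. At an unadjusted p under 0.05 in limma, 6 were lower and 0 higher, a cut at which all tested genes were not counted. The 9 genes summed to 671, 1648 and 674 normalised reads in C246X brains, against 2200.5, 4863 and 2487 in WT brains. In percent of the WT mean the sums were 21.1%, 51.8% and 21.2% in C246X brains, against 69.1%, 153% and 78.1% in WT brains, with replicate 2 again highest in both genotypes. The melatonin enzyme gene aanat2 had 13.4, 121 and 22.2 in C246X brains, against 329, 804 and 325 in WT brains (log2 fold change −3.68, adjusted p = 0.01). ASMT, which carries out the last step of melatonin synthesis, had 29.9, 573 and 10.1 in C246X brains, against 827, 2517 and 1142 in WT brains. Replicate 2 was the highest library of both genotypes for each of these enzymes. The pineal opsin gene parapinopsinb had 96.0, 177 and 88.6 in C246X brains, against 244, 377 and 290.2 in WT brains (log2 fold change −1.37, adjusted p = 0.0104). The homeobox gene bsx had 72.2, 86.6 and 58.4 in C246X brains, against 124, 203 and 126 in WT brains. It passed as well.

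The other 5 pineal genes did not pass. The opsin gene parietopsin had 0, 19.4 and 0 in C246X brains, against 11.9, 119.6 and 36.0 in WT brains, and parapinopsina was also listed at 0 in C246X replicates 1 and 3. The second melatonin enzyme gene asmt2 had 253, 233 and 272 in C246X brains, against 312, 238 and 215 in WT brains. TPH1 (ENSDARG00000029432), of an enzyme that makes the serotonin from which melatonin is formed, had 183, 403 and 207 in C246X brains, against 328, 551 and 338 in WT brains. The other TPH1 copy (ENSDARG00000036082) ran the other way, at 23.7, 23.4 and 16.1 in C246X brains against 16.9, 11.1 and 6.36 in WT brains (log2 fold change 0.90, adjusted p = 0.152). Unlike ASMT, asmt2 was not highest in replicate 2 of either genotype. The number of pineal genes that passed as lower was 2 without C246X replicate 1 or 3, 3 without any 1 WT replicate and 7 without C246X replicate 2. The part of pineal tissue in the phototransduction result was not tested.

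**Figure D4:**
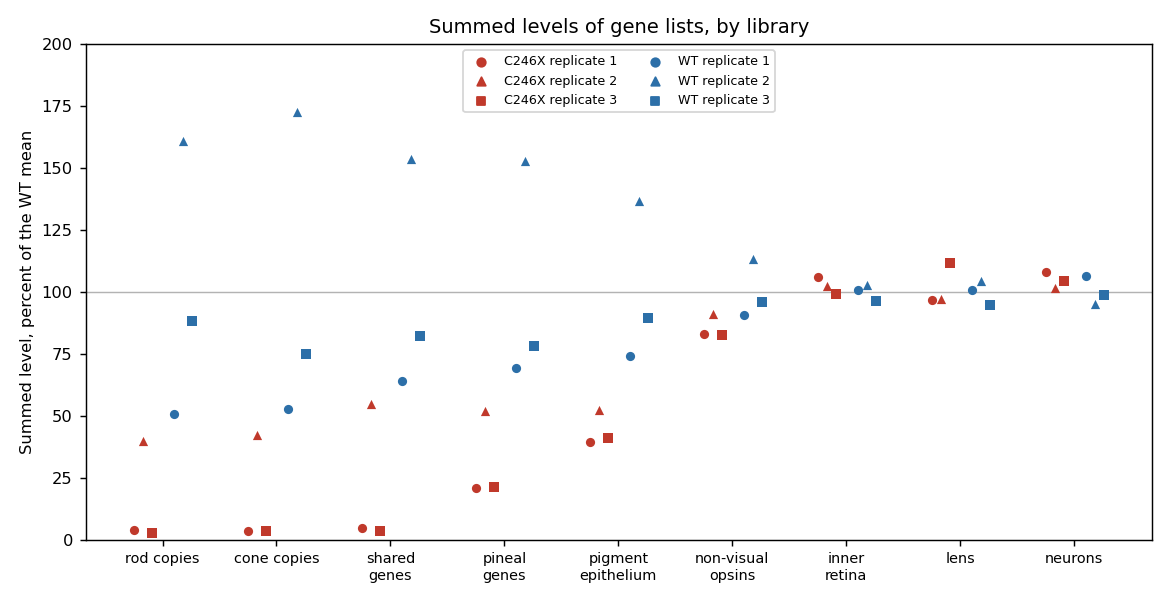
Summed level of 9 gene lists in each library, in percent of the mean of the WT libraries, with C246X libraries in red left of WT libraries in blue and the replicate number as the symbol. Rod, cone, shared and pineal genes spread widely, with rod sums of 3.91%, 39.8% and 2.64% in C246X brains and 50.9%, 161% and 88.1% in WT brains, while lens, inner retina and neuron sums lie between 94.8% and 112% in all libraries.

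Markers of eye tissues other than photoreceptors were compared in the same way. The 17 inner retina markers, some of which the brain also expresses, summed to 106%, 102% and 99.2% of their WT mean in C246X brains, against 101%, 103% and 96.4% in WT brains. Of them 2 passed as lower and 1 as higher, where 11.4% and 11.1% of all tested genes did. With 1 library left out, 0 to 3 were lower and 0 to 1 higher. In each library most of this sum came from POU4F2 and BHLHE23, which brain neurons also express. VSX1, a bipolar cell factor, had at most 3.98 normalised reads in any library of either genotype and did not pass (limma, adjusted p = 0.315). It was listed at 0 in C246X replicates 1 and 2 and had 3.02 in C246X replicate 3. The 13 lens markers summed to 96.6%, 97.1% and 112% in C246X brains, against 101%, 105% and 94.8% in WT brains. None of the lens markers passed in limma or limma-voom. With an unadjusted p under 0.05 in limma, 1 was lower and 0 higher, a cut not counted over all tested genes. The defining lens gene MIP had at most 4.24 normalised reads, and was listed at 0 in C246X replicates 1 and 2.

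The 13 markers of pigment epithelium and pigment cells summed to 39.3%, 52.5% and 41.1% of their WT mean in C246X brains, against 74.0%, 137% and 89.4% in WT brains. This sum does not describe most of the list. The median log2 fold change of the 13 genes was −0.12, with 8 negative and 5 positive, and 11 did not pass. Among all tested genes 22.5% passed in either direction. The highest of the 13 in every library was RPE65 (ENSDARG00000007480), of the retinoid isomerase family of the visual cycle. It had 212, 386 and 190.4 normalised reads in C246X brains, against 813, 2095 and 889.7 in WT brains (log2 fold change −2.20, adjusted p = 0.00574). Most of the fall in the sum came from this gene. RPE65 (ENSDARG00000094752) had 62.9, 57.0 and 54.4 in C246X brains, against 125, 136 and 118 in WT brains and also passed. The remaining copy, RPE65 (ENSDARG00000054420), did not pass (log2 fold change −0.19). The list had 2 genes lower with each library left out in turn. The pigment enzyme gene TYR had at most 2.06 normalised reads in any library and was listed at 0 in WT replicate 1. The part of pigment epithelium in the phototransduction result was not tested.

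Further genes of the pathway that lay outside the list of 55 names were followed too. Of 19 other phototransduction genes 4 passed as lower and 3 as higher, against 11.4% and 11.1% of all tested genes. The phosducin copy PDC (ENSDARG00000017634), which binds transducin beta and gamma subunits, had 5.16, 116 and 6.04 in C246X brains, against 170.3, 436 and 223 in WT brains. The retinal guanylate cyclase gene gucy2f had 9.29, 30.6 and 7.05 in C246X brains, against 57.8, 169 and 105 in WT brains. In both, replicate 2 was again the highest library of each genotype. The recoverin gene rcvrnb did not follow that order, as WT replicate 2 was its lowest WT library. It had 61.9, 824 and 39.3 in C246X brains, against 1086, 740 and 1060 in WT brains. The genotypes overlapped, and the difference did not pass (limma, adjusted p = 0.0645). The exchanger gene slc24a2, whose mammalian counterpart moves calcium out of cones and brain neurons, differed. It had 645, 1171 and 648 in C246X brains, against 56.8, 143 and 175 in WT brains. The gene rose by 2.80 on the log2 scale (adjusted p = 0.00266), and its relative SLC24A2 (ENSDARG00000063158) rose by 0.47 (adjusted p = 0.00626). The count of lower genes in this list was 1 without C246X replicate 1, C246X replicate 3, WT replicate 2 or WT replicate 3, and 7 without C246X replicate 2.

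Of 20 tested genes of the outer segment and visual cycle, 6 passed as lower and 0 as higher. Among all tested genes 11.4% were lower and 11.1% higher. The retinol dehydrogenase gene rdh5 had 12.4, 112 and 1.01 in C246X brains, against 202, 513 and 315 in WT brains (log2 fold change −4.47, adjusted p = 0.0332). A PROM1 copy (ENSDARG00000034007), which the brain at large also expresses, had 707, 749.6 and 733 in C246X brains, against 1042, 1083 and 1003 in WT brains. Unlike rdh5, it hardly varied within a genotype (adjusted p = 0.00141). The count of lower genes here was 3 without C246X replicate 1, C246X replicate 3 or WT replicate 3, 2 without WT replicate 2 and 9 without C246X replicate 2.

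Photoreceptor transcription factors had 4 of 10 genes lower and 0 higher, against 11.4% and 11.1% of all tested genes. The factor crx, which in fish is expressed in photoreceptors of the retina and the pineal organ, had 14.4, 141 and 4.62 in C246X brains, against 277, 647 and 319 in WT brains (log2 fold change −4.06, adjusted p = 0.0236). CRX (ENSDARG00000043483) had 10.3, 86.6 and 12.1 in C246X brains, against 80.7, 353 and 139.8 in WT brains (adjusted p = 0.0432). Both were highest in replicate 2 of each genotype. The remaining genes that passed, TBX2 (ENSDARG00000006120) and THRB, shifted far less, with log2 fold changes of −0.48 and −0.27. TBX2 averaged 296 in C246X brains and 413 in WT brains, and THRB 3817 and 4610. Their values varied little within a genotype. The rod factor gene nrl had at most 2.12 normalised reads in any library. The count of lower genes in this list was 0 without C246X replicate 1, C246X replicate 3, WT replicate 2 or WT replicate 3. It was 5 without WT replicate 1, and 2 if C246X replicate 2 was dropped. Of the 27 other non-visual opsins, which are expressed in deep brain and other tissues, 1 passed as lower (tmtops2a) and 0 as higher, and 0 were lower without any 1 of the C246X replicates. In sum these opsins stood at 83.0%, 91.1% and 82.4% of their WT mean in C246X brains, against 90.8%, 113% and 95.7% in WT brains.

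Genes outside the list were also ranked by how closely their 6 values followed the median centred profile of the rod and cone genes. On the log2(value + 1) scale that profile was −2.09, 0.57 and −2.82 in C246X brains and 0.86, 2.39 and 1.56 in WT brains. Among 764 candidates with a mean of at least 20 and an SD of at least 1, the highest Pearson r over the 6 libraries belonged to CPLX4 at 0.998, unc119c at 0.996, ABCA4 (ENSDARG00000062661) at 0.995, ASMT at 0.995 and crx at 0.993. They were followed by SLC25A3 (ENSDARG00000027424), si:ch211-263p13.7, pcare2, zgc:109965 and si:ch211-133l5.5, at 0.992 to 0.990. CPLX4, a complexin of retinal ribbon synapses in mouse, had 13.4, 90.6 and 10.1 normalised reads in C246X brains, against 115, 320 and 161 in WT brains. Of the 11 shared phototransduction genes with a mean of at least 20, which did not enter the profile, 10 had r between 0.909 and 0.995 and rom1a had 0.355. These correlations describe 6 libraries of 2 genotypes, whose difference is part of the profile.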

How the data were processed

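Polyadenylated RNA of whole brain was sequenced as paired reads of 150 bp, per the labels, and the submitters' processing notes name STAR, without a version, and the build GRCz11. Neither counter nor scaling is stated in the labels. The deposited signal values are 1 number per gene and library. From the values, they are estimated reads divided by 1 factor per library: in each library 94.99% to 95.2% of low values were whole multiples of 1 step within 0.03. They were not accepted as read counts, so a count model was not the main test. Genes with a mean of at least 1 (23104 of 23678) were transformed to log2(value + 1) and compared between genotypes with limma 3.58.1 in R 4.3.3 (mean-variance trend, robust off), with Benjamini-Hochberg adjustment over all genes and a threshold of 0.05. The fit was tested on simulated data with much less spread between libraries than most phototransduction genes showed. That test therefore does not cover these genes.

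The 55 names, the context lists, the rod and cone classes and the rules were chosen with earlier results of these data known. Values are given for genes past the threshold and for up to 4 genes per role with the highest mean; from context lists, for genes past the threshold with the smallest p, at most 4, and for pineal genes with a mean of at least 20; and for the genes closest in profile, 10 by Pearson r. Some genes that these rules take are in the counts and sums but are not reported here. Of the 23678 genes, 22274 had a symbol. Neither sequences nor coordinates are printed, since no table used here pairs these genes with them. Python 3.11.15, pandas 2.3.3 and matplotlib 3.10.9 were used. Alternatives covered scaling, filter, pseudocount, limma-voom, a replicate block and each library left out.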

Additional observations from a re-analysis of the deposited data

How the results depend on the processing

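With all 6 libraries, between 27 and 36 phototransduction genes were lower under the alternatives, against 31, and 0 were higher under every alternative. Over all tested genes these alternatives gave between 2334 lower of 17799 with the stricter filter and 2793 of 23098 with total-count scaling. Higher genes over all numbered between 2278 with total-count scaling and 2590 with a pseudocount of 5. The count was 31 with recomputed, upper-quartile or total-count scaling and with no filter, 32 and 29 with pseudocounts of 5 and 0.1, 28 with limma-voom, and 27 with the stricter filter on low values, where fewer genes were tested. The median log2 fold change of −2.54 moved to −3.79 under that filter, which drops low genes, and to −3.29 without C246X replicate 2. Leaving out 1 library gave 1 to 33 lower genes and medians of −3.29 to −2.23. Of the 31 genes, 23 were tested and passed under every alternative with 6 libraries. Another 3 (gnb3b, ROM1 and IMPG1) passed under all but the stricter filter, which left them untested. Genes that held under every alternative were not counted over all tested genes, so no share stands beside these counts. The rod sum ratio of 0.155 became 0.644 with gnb1a and gnb1b included, which outweigh the other genes in reads, 0.117 as a mean of log2 values, and 0.0328 to 0.222 with 1 library left out. The cone ratio of 0.164 became 0.187 as a mean of log2 values and 0.0358 to 0.258 with 1 library left out.

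Signs reversed only in genes that had not passed, with 1 library left out. ARR3 (ENSDARG00000098475) became 0.061 without C246X replicate 1 (range over left-out libraries −0.76 to 0.061). The fold change of opn1lw1 became −0.96 without C246X replicate 2 (range −0.96 to 1.75). GNGT2 (ENSDARG00000103543) became −0.12 and −0.11 without C246X replicates 2 and 3, and −0.34 without WT replicate 2 (range −0.34 to 0.89). GUCA1A (ENSDARG00000100747) became −0.063 without C246X replicate 2 and −0.16 without WT replicate 1 (range −0.16 to 0.66). The fold change of opn1sw2 became −0.47 without C246X replicate 3 and −0.12 without WT replicate 2 (range −0.47 to 0.61). For rom1a it became 0.093 without WT replicate 2 (range −0.49 to 0.093). The cause was not tested.

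The replicate numbers did not meet the rule for pairing, which rests on the deviations of same-numbered libraries from their group means. These correlated at only 0.136, 0.129 and 0.0768 over genes with a mean of at least 20 normalised reads. Each library still correlated best with its own number. Deviations from a group mean cancel within a genotype, so these correlations are not independent, and no pairing is read from them. With a replicate block 36 genes were lower and 0 higher, against 2479 lower and 2285 higher of all 23104 tested genes. The edgeR alternative was not run, since the recovered values were not accepted as whole reads. Precision is limited by 3 libraries per genotype that differ widely, and by genes with few reads, where a value of 0 or 1 read decides the fold change.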
